A study of Mus musculus with 6 samples.

Results

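The genes described are the nuclear-encoded subunits of the mitochondrial respiratory chain and ATP synthase, followed across the cell classes and treatments of mouse prostate tumours. They were chosen by symbol. A gene was kept when its symbol begins with Ndufa, Ndufb, Ndufc, Ndufs, Ndufv, Uqcr, Cox4 to Cox8 or Atp5, or is Sdha, Sdhb, Sdhc or Sdhd, and 8 Ndufaf assembly factors and 1 symbol ending in -ps were left out. This gave 82 of the 18848 genes in the deposited count table: 36 of complex I, 4 of complex II, 8 of complex III, 17 of complex IV and 17 of ATP synthase (complex V). Ndufa4 and Ndufa4l2 were counted with complex IV.

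Tumours of PPS-ICBR cells, a mouse prostate cancer line resistant to immune checkpoint blockade, were grown in C57Bl6 mice, and single cells of the leukocyte layer of a Percoll gradient were profiled on the 10x platform. There were 4 groups of 3 tumours: standard diet (SD), chow with 1,3-butanediol (BD), standard diet with antibodies to PD-1 and CTLA-4 (ICB), and both (BD+ICB), the antibodies being given at 0.2 mg. Every group carried the same line, so each describes 1 resistant model, and no age of the mice is given in the labels. Hashtags marked the tumours, and 1 library pooled SD with BD while the other pooled ICB with BD+ICB, so blockade and library cannot be told apart in any comparison between the libraries. The labels do not say that each tumour came from a separate mouse, so p-values measure the spread between these tumours.

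The table held 5749 cells in 19 classes named by the authors, with 70 to 913 cells and 510984 to 13007506 unique molecular identifiers (UMIs, 1 per captured transcript) per tumour. Median UMIs per cell were 4544.5 to 10817 among tumours. The listed tumour sizes, whose unit is not stated, were 870 to 2348 in SD, 172 to 203 in BD, 289 to 1116 in ICB and 23 to 90 in BD+ICB. The libraries shared 1931 of 36632 barcodes, and 186 of the deposited cells carried one of these. Levels of single genes are given as CPM, the UMIs of a gene per 1000000 UMIs of the class in a tumour. Neutrophil classes had 6 of 6 neutrophil markers above 20 CPM. Only 2 of 6 prostate epithelial markers reached that level in the cells named proliferating cancer cells, against 6 of 7 fibroblast markers. These cells had a median of 108620 UMIs per cell. The cells named Nos2+ dendritic cells had 7 of 7 macrophage and 6 of 6 monocyte markers above 20 CPM. Of the markers of dendritic cells type 1, type 2 and migratory dendritic cells they had 2 of 4, 1 of 4 and 0 of 4.

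The respiratory chain passes electrons from NADH (complex I) and succinate (complex II) through complex III to oxygen at complex IV, and the proton gradient so built drives ATP synthase. Its subunits are made from 2 genomes: a small core is encoded in mitochondrial DNA, and all other subunits are nuclear genes whose proteins are imported. Several nuclear subunits exist in isoforms used by muscle, testis or cells short of oxygen. Mature neutrophils are known for relying on glycolysis and holding few mitochondria, and macrophage states are known to differ in how much they respire.

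Many of these genes are described as sharing promoter elements bound by NRF1, YY1, the GABP (NRF-2) factor and ERRalpha, so the promoters of the members that the treatment comparisons return to are shown first, with Cox8a, the member whose level varied least among cell classes. Each line gives the 120 bases just before a start listed for the gene, 5′ to 3′ in the direction of the gene, from RefSeq on GRCm38.p6. Where the gene's outer bound lies further upstream, as in Atp5d and Atp5g1, the listed start and its stretch lie within the annotated gene in whole or in part, and of the 2 starts listed for Atp5d the first is shown. Capitals mark matches to the cores searched on both strands, which were CATGCGC (NRF1), AAGATGGC (YY1), CCGGAAG (GABP) and AAGGTCA (ERRalpha).
Atp5g2: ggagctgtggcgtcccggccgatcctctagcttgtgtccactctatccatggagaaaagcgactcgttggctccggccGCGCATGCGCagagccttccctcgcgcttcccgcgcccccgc
Atp5d: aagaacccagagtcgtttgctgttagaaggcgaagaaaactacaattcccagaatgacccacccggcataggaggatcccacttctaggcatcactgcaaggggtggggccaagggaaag
Atp5g1: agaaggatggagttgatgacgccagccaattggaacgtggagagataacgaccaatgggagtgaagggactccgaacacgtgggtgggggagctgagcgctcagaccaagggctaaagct
Atp5h: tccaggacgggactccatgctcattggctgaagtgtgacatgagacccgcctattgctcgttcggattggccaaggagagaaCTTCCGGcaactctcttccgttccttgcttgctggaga
Ndufa6: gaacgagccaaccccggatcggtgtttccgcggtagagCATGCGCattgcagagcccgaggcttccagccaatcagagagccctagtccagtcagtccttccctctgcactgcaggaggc
Ndufa4: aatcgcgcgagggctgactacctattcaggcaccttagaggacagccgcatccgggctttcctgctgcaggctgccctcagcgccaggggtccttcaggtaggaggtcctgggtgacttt
Cox8a: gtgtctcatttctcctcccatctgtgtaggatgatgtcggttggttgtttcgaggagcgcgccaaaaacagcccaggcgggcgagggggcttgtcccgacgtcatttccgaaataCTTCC
These stretches lie at chr15:102671048-102671167, minus strand (Atp5g2), chr10:80142155-80142274, plus strand (Atp5d), chr11:96075632-96075751, minus strand (Atp5g1), chr11:115419920-115420039, minus strand (Atp5h), chr15:82354292-82354411, minus strand (Ndufa6), chr6:11907451-11907570, minus strand (Ndufa4) and chr19:7217617-7217736, minus strand (Cox8a). In Atp5g2 the NRF1 core matched on both strands, overlapping, with first bases 42 and 39 bases before the start (-42 and -39). In Ndufa6 the same core began at -82, in Atp5h the GABP core began at -38, and in Cox8a a GABP core began at -5 and runs past the start, with another at 32 beyond it. The 300-base windows listed for Atp5d, Atp5g1 and Ndufa4, from 250 bases before a start to 50 after it, held none of the 4 cores, and sequence at other starts was not searched.

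RefSeq promoters were given for 66 of the 82 genes. Of these, 13 held the NRF1 core (19.7%, against 4.41% of 27025 genes with a promoter), 9 the YY1 core (13.6% against 3.19%), 17 the GABP core (25.8% against 9.93%) and 8 the ERRalpha core (12.1% against 5.38%). At least 1 of the 4 cores was found for 35 of the 66 genes, 53.0%, against 20.7% of all genes with a promoter. A gene counts when any of its listed windows matches, and per window the shares were 49.3% of the members' 71 and 18.5% of all 32851. A match describes letters in the window and not binding.

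Levels across the cell classes were compared first, as the share of all UMIs of a class that came from the 82 genes, within each tumour with at least 10 cells of the class. Over all cells this share was 1.99%. The classes were named by the authors from the same cells' expression, so differences between classes are described without a test. Neutrophils stood apart: Ifit+ neutrophils held 0.506% ± 0.0722 (SD, n = 4 tumours), Hilpda+ neutrophils 0.670% ± 0.142 (n = 8) and Cxcr2+ neutrophils 0.829% ± 0.216 (n = 11). The highest neutrophil value, 1.11%, lay below the lowest value of any other class, 1.34% in Trem2+ M2 macrophages.

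The other classes lay within a narrower band. Mmp+ M2 macrophages had the next lowest share, 1.64% ± 0.140 (SD, n = 12), followed by Trem2+ M2 macrophages at 1.75% ± 0.268 (n = 12), Nos2+ dendritic cells at 1.77% ± 0.133 (n = 6) and Vcan+ monocytes at 1.80% ± 0.175 (n = 7). CD4 T cells held 1.82% ± 0.108 (n = 6), CD8 T cells 1.87% ± 0.109 (n = 8) and NK cells 1.96% ± 0.171 (n = 6). M1 macrophages held 2.04% ± 0.132 (n = 10), other dendritic cells 2.15% ± 0.122 (n = 7), other macrophages 2.26% ± 0.182 (n = 8) and proliferating immune cells 2.26% ± 0.156 (n = 9). The highest were mesenchymal cells at 2.38% ± 0.114 (n = 6) and proliferating cancer cells at 2.42% ± 0.100 (n = 7). Regulatory T cells and Ifit+ monocytes each had 1 tumour with at least 10 cells and were left out of the order.

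Most neighbours in this order did not differ beyond the spread between tumours. Proliferating cancer cells were above mesenchymal cells in 4 of 5 tumours that had both, NK cells above CD8 T cells in 3 of 5, and Trem2+ above Mmp+ macrophages in 8 of 12. The means cover different sets of tumours, and 2 steps went against their order within tumours. Vcan+ monocytes were above Nos2+ dendritic cells in 1 of 5, and proliferating immune cells above other macrophages in 3 of 8. The steps that held in every tumour were from Nos2+ dendritic cells down to Trem2+ macrophages (6 of 6), from Mmp+ macrophages down to Cxcr2+ neutrophils (11 of 11), from Cxcr2+ to Hilpda+ neutrophils (8 of 8) and from Hilpda+ to Ifit+ neutrophils (4 of 4). M1 macrophages held 1.28 ± 0.0713 times the share of Mmp+ M2 macrophages (SD of the within-tumour ratio, n = 10), with M1 higher in all 10.

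Within tumours, the share in Cxcr2+ neutrophils was 0.470 ± 0.0641 times that in Trem2+ macrophages (SD, n = 11) and 0.413 ± 0.122 times that in CD8 T cells (n = 8). Median depth was 2393 UMIs per Cxcr2+ neutrophil and 7966 per Trem2+ macrophage, so counted per cell rather than as a share the first ratio was 0.149 ± 0.0383. With S100a8, S100a9, ribosomal and mitochondria-encoded transcripts taken out of the total, Cxcr2+ neutrophils held 0.976% ± 0.281 and Trem2+ macrophages 2.16% ± 0.437.

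**Figure D1:**
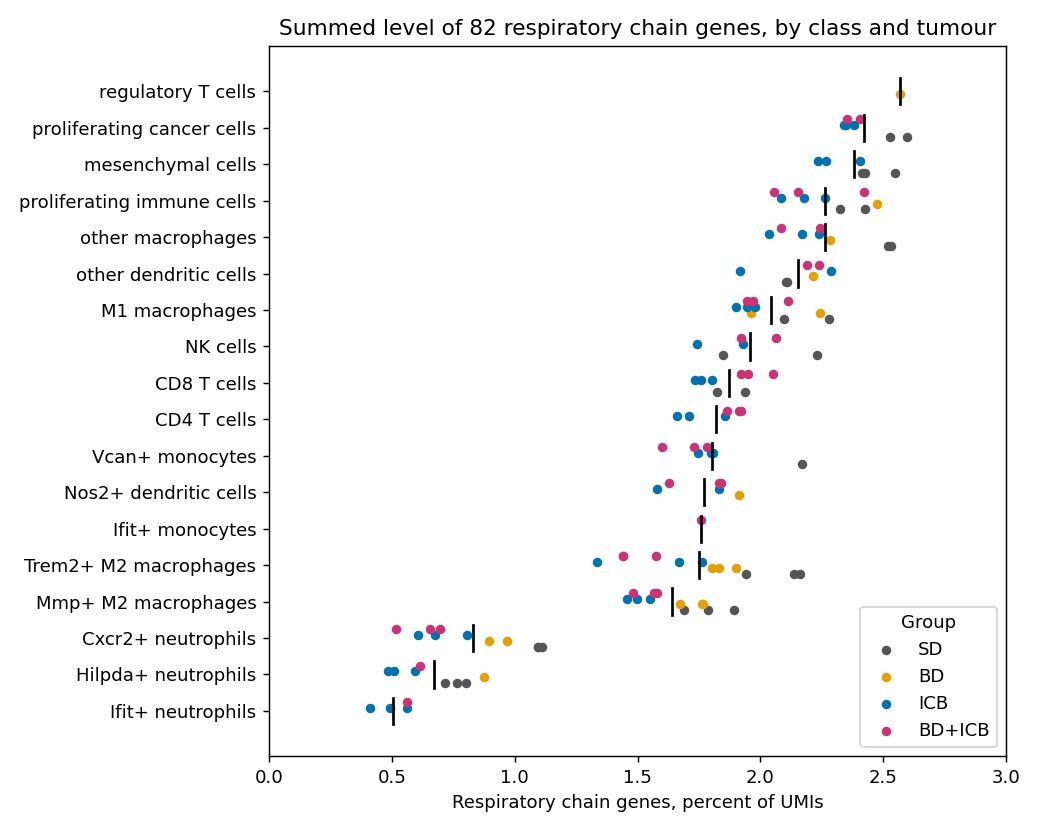
Share of UMIs from the 82 respiratory chain genes (x axis, percent) in each cell class (y axis). Each point is 1 tumour with at least 10 cells of the class, coloured by group, and the bar is the mean over tumours; all neutrophil points lie at or below 1.11% and all others at or above 1.34%.

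The neutrophil deficit was uneven among the subunits. Of 77 members with at least 10 CPM in either class, 53 were lower in Cxcr2+ neutrophils than in Trem2+ macrophages in all 11 tumours, against 19.8% of the 7630 genes measured so. The median member stood at 38.9% of its macrophage level, and the median over all those genes was 66.1%. By complex the medians were 38.7% (I), 48.8% (II), 34.5% (III), 47.7% (IV) and 38.9% (V).

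Cox8a, a small membrane subunit of complex IV, had the highest relative level, 111% of that in macrophages. In Cxcr2+ neutrophils it gave 868, 774 and 853 CPM in the SD tumours, 642 and 689 in BD, 515, 537 and 665 in ICB, and 481, 507 and 626 in BD+ICB. In Trem2+ macrophages of the same groups Cox8a gave 640, 752 and 741, then 487, 601 and 625, then 423, 609 and 600, and 473, 533 and 423. These ranges overlap, and neutrophils were lower in 2 of 11 tumours. Cox8a also varied least of all members over 16 classes with at least 3 tumours, 1.65-fold from Ifit+ neutrophils (499.5) to proliferating cancer cells (826).

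Ndufb9 and Ndufa7, accessory subunits of complex I, stood near parity at 102% and 101.5%, and were lower in neutrophils in 6 and 2 of 11 tumours. Uqcrq of complex III was at 64.9%, Sdhd, a membrane anchor of complex II, at 74.6%, and Atp5md and Atp5l of ATP synthase at 83.4% and 73.0%. At the other end were Ndufa9 at 13.8%, Ndufc2 at 14.4% and Ndufb8 at 19.6% in complex I, Sdhc, the other anchor of complex II, at 18.8%, Uqcrc2, a core protein of complex III, at 18.5%, Cox5a at 27.0% and Atp5g3 at 17.96%. Subunits of the same complex, which are needed together in the assembled enzyme, thus ran from 13.8% to 102% in complex I and from 18.8% to 74.6% in complex II.

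The depth limits the low end. Ndufa9 gave no UMI in 5 of the 11 neutrophil samples and at most 15.07 CPM, whereas it gave 15.14 to 75.0 CPM in the macrophages, so the ranges came within a fraction of 1 UMI of each other. Its mean level in neutrophils was 5.50 ± 6.38 CPM (SD, n = 11).

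**Figure D2:**
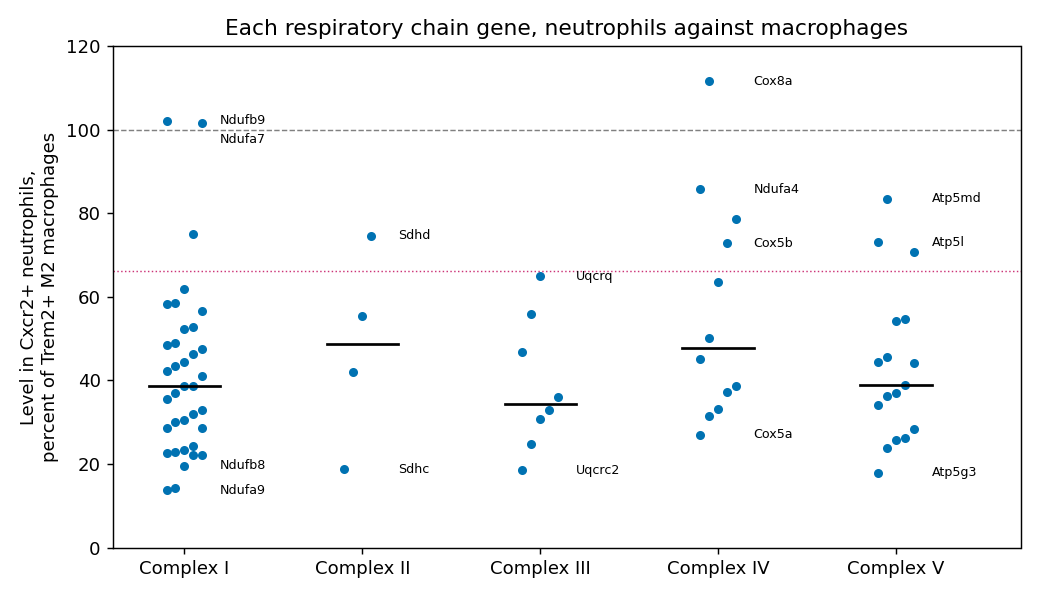
Mean level of each of 77 respiratory chain genes in Cxcr2+ neutrophils as a percent of its mean level in Trem2+ M2 macrophages (y axis) by complex (x axis), over the 11 tumours with both classes. Bars are medians of a complex, the dashed line is equality and the dotted line is the median of all genes, 66.1%; Cox8a, Ndufb9 and Ndufa7 lie at or above 100%.

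Complex IV took a larger part of the members' UMIs in neutrophils, 33.5% ± 1.09 in Cxcr2+ neutrophils (SD, n = 11) and 36.2% ± 0.758 in Ifit+ neutrophils (n = 4), than in Trem2+ macrophages, where it was 30.0% ± 0.859 (n = 12). Complex I took 25.2% in Cxcr2+ neutrophils, 27.3% in Trem2+ macrophages and 30.0% in mesenchymal cells. ATP synthase took 33.3% in NK cells and 29.0% in mesenchymal cells, the range of its mean over classes with at least 3 tumours. The 13 mitochondria-encoded subunits were low in neutrophils too, at 0.995% ± 0.128 of UMIs in Cxcr2+ neutrophils against 3.43% ± 0.293 in Trem2+ macrophages.

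Single members were compared by CPM averaged over the 16 classes. A UMI marks 1 transcript whatever its length, so levels were not divided by length, although the capture of different transcripts may differ. Cox4i1, the general isoform of a regulatory complex IV subunit, was highest at 895, followed by Cox8a at 673, Atp5e, the epsilon subunit of ATP synthase, at 577, Cox6c at 574 and Atp5l at 553. Uqcrh (500.1) led complex III before Uqcrq (312) and Uqcrb (243), and Atp5h (484), a peripheral stalk subunit, followed Atp5e and Atp5l in ATP synthase. In complex I the highest were Ndufa2 (290.0), Ndufa13 (287) and Ndufb9 (258). Complex II was low throughout, with Sdhb, its iron-sulfur subunit, at 89.9, Sdhd at 77.9, the flavoprotein Sdha at 67.2 and Sdhc at 53.6.

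Core subunits of complexes I and III were among the less abundant. Ndufs1 (24.7) and Ndufv1 (50.8), which carry redox centres of complex I, were well below the accessory subunit Ndufb8 (215). Uqcrc1 (65.1), Uqcrc2 (56.5) and the Rieske protein Uqcrfs1 (88.7) were below the other subunits of complex III. In ATP synthase the catalytic beta subunit Atp5b (394) exceeded Atp5a1 (290.0) and Atp5c1 (211), and Cox5a stood at 391. Atp5b was highest in proliferating cancer cells (935), as was Atp5a1 (502), whereas Ndufs1 was highest in NK cells (46.6).

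Isoforms divided sharply. The muscle-type Cox7a1 gave 304 UMIs in all cells against 26560 of Cox7a2, and Cox6a2 gave 21 against 19590 of Cox6a1. The testis-type Cox6b2 gave 147 UMIs against 31904 of Cox6b1. The isoforms tied to low oxygen gave 216 UMIs (Cox4i2) against 69240 (Cox4i1), and 110 (Ndufa4l2) against 22808 (Ndufa4). Cox7b2, Cox8b and Cox8c were not rows of the table, while Cox7b stood at 313 CPM and Cox7a2l, a relative of Cox7a2 tied to supercomplexes, at 266.

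The rare isoforms had their highest means in particular classes, on few UMIs. Cox4i2 was highest in Mmp+ M2 macrophages, at 17.3 ± 9.71 CPM (SD, n = 12, from 4.61 to 36.2, 72 UMIs), against 4.87 ± 4.65 in Trem2+ macrophages (24 UMIs). Cox7a1 was also highest there, at 11.3 ± 7.47 (54 UMIs), against 7.85 ± 6.53 in Trem2+ macrophages, a gap within the spread. Ndufa4l2 was highest in mesenchymal cells, at 7.61 ± 12.1 (n = 6), where ICB replicate 1 gave 31.6 and the other 5 tumours 0.828 to 8.50. Cox6b2 reached 5.85 ± 4.20 in Trem2+ macrophages and Cox6a2 1.54 ± 2.25 in other macrophages, the latter on 3 UMIs.

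Ndufa4 had the widest range of the members above these, 38.6-fold, from 20.03 CPM in Ifit+ neutrophils to 773 in proliferating cancer cells. Its low-oxygen isoform Ndufa4l2 averaged 1.02 CPM over the same classes.

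The effect of blockade, which cannot be told apart from that of the library, was examined by comparing ICB with SD tumours. This covered 12 classes with at least 2 tumours a group. Counts were summed per tumour and class and tested with edgeR's quasi-likelihood test, with Benjamini-Hochberg adjustment over all genes of a class and a threshold of 0.05. Members were lower in 29 tests and higher in none, out of 863 member tests, against 1.41% of all 61706 gene tests lower, and 18 different members were involved. Most calls were in 3 macrophage classes: 15 of 77 members in Trem2+ M2 macrophages, 5 of 77 in Mmp+ M2 macrophages and 5 of 77 in other macrophages. In M1 macrophages edgeR called 0 of 77, with 21 at an unadjusted p under 0.05 and 1 by DESeq2. Calls do not follow the size of the shift, and fewer members passed the count filter in neutrophils. In Cxcr2+ neutrophils 60 of 62 folds were negative (median -0.65, all genes 0.02), with 29 at an unadjusted p under 0.05 and 1 call. In Hilpda+ neutrophils 39 of 40 were negative (median -0.50, all genes 0.06), with 16 under 0.05 and 1 call. The medians were -0.31 in Mmp+ and -0.24 in other macrophages. Of the 29 calls, 12 were in complex I, 5 in complex IV and 12 in ATP synthase, and none was in complexes II and III. In the sums over the cells of a class used here, fewer cells of a subtype and less RNA per cell cannot be told apart.

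In Trem2+ macrophages 76 of the 77 members that passed the count filter had a negative log2 fold, with a median of -0.43, while the median over all 5049 genes was 0.05 and 3.45% of them were called lower. The 5 members that did not pass were Cox4i2, Cox6a2, Cox6b2, Cox7a1 and Ndufa4l2. The medians were alike by complex: -0.43 in complex I (36 of 36 negative), -0.29 in complex II (4 of 4), -0.48 in complex III (8 of 8), -0.38 in complex IV (12 of 12) and -0.44 in ATP synthase (16 of 17).

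The ATP synthase calls included 2 of the 3 genes of the membrane ring. Atp5g2 gave 537, 502 and 568 CPM in SD tumours, 487, 510 and 414 in BD, 313, 335 and 262 in ICB, and 327, 267 and 257 in BD+ICB. The SD and ICB values did not overlap, and of the BD values 1 lay within the SD range and the other 2 between the SD and ICB values. Its log2 fold between ICB and SD was -0.83 ± 0.19 (SE; edgeR adjusted p = 0.0129). Atp5g1, which encodes the same mature protein, fell by 0.94 ± 0.23 on the log2 scale (SE; edgeR adjusted p = 0.0183).

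Atp5d, the delta subunit of the central stalk, gave 352, 373 and 373 CPM in SD, 203, 348 and 290 in BD, 165, 275 and 169 in ICB, and 179, 159 and 194 in BD+ICB. Its log2 fold was -0.90 ± 0.23 (SE; edgeR adjusted p = 0.0247). Atp5o and Atp5h, both of the peripheral stalk, had log2 folds of -0.86 and -0.60 (edgeR adjusted p = 0.0296 and 0.0455). The catalytic Atp5b did not pass, with 409, 398 and 354 in SD and 278, 326 and 444 in ICB, ranges that overlap.

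In complex I, 8 accessory or core subunits fell: Ndufb9, Ndufa7, Ndufb11, Ndufa12, Ndufb10, Ndufa8, Ndufa6 and Ndufv2. Ndufb9 gave 309, 244 and 297 CPM in SD, 220, 212 and 205 in BD, 139, 167 and 150 in ICB, and 146, 154 and 118 in BD+ICB, and its log2 fold between ICB and SD was -0.94 ± 0.20 (SE; edgeR adjusted p = 0.00950). The 3 BD values of Ndufb9 lay below all SD and above all ICB values. Ndufv2, which carries an iron-sulfur centre at the NADH site, had the largest fold, -1.01 ± 0.29 (SE; edgeR adjusted p = 0.0398), but its ICB values of 44.9, 68.7 and 106 met the SD values of 143, 104 and 122.

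Ndufa12, a matrix-arm subunit, gave 149, 112 and 141 in SD, 70.2, 50.5 and 93.7 in BD, 69.2, 73.0 and 81.2 in ICB, and 64.9, 76.9 and 69.3 in BD+ICB. All 9 values outside SD were below the 3 SD values, and the log2 fold between ICB and SD was -0.91 ± 0.23 (SE; edgeR adjusted p = 0.0221). Core subunits Ndufs1 and Ndufv1 did not pass in this class.

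In complex IV, Cox4i1 gave 1282, 1345 and 1426 in SD and 797, 1017 and 981 in ICB, with a log2 fold of -0.57 ± 0.17 (SE; edgeR adjusted p = 0.0455), and BD held 1196, 1100 and 1311. Ndufa4 gave 126, 148 and 158 in SD, 109, 146 and 148 in BD, 60.4, 98.7 and 87.5 in ICB, and 79.1, 76.9 and 76.3 in BD+ICB, with a log2 fold of -0.95 ± 0.24 (SE; edgeR adjusted p = 0.0221). In both genes the SD and ICB values did not overlap. Sdha showed no such separation, with 87.3, 74.1 and 83.1 in SD and 77.5, 60.1 and 100 in ICB.

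**Figure D3:**
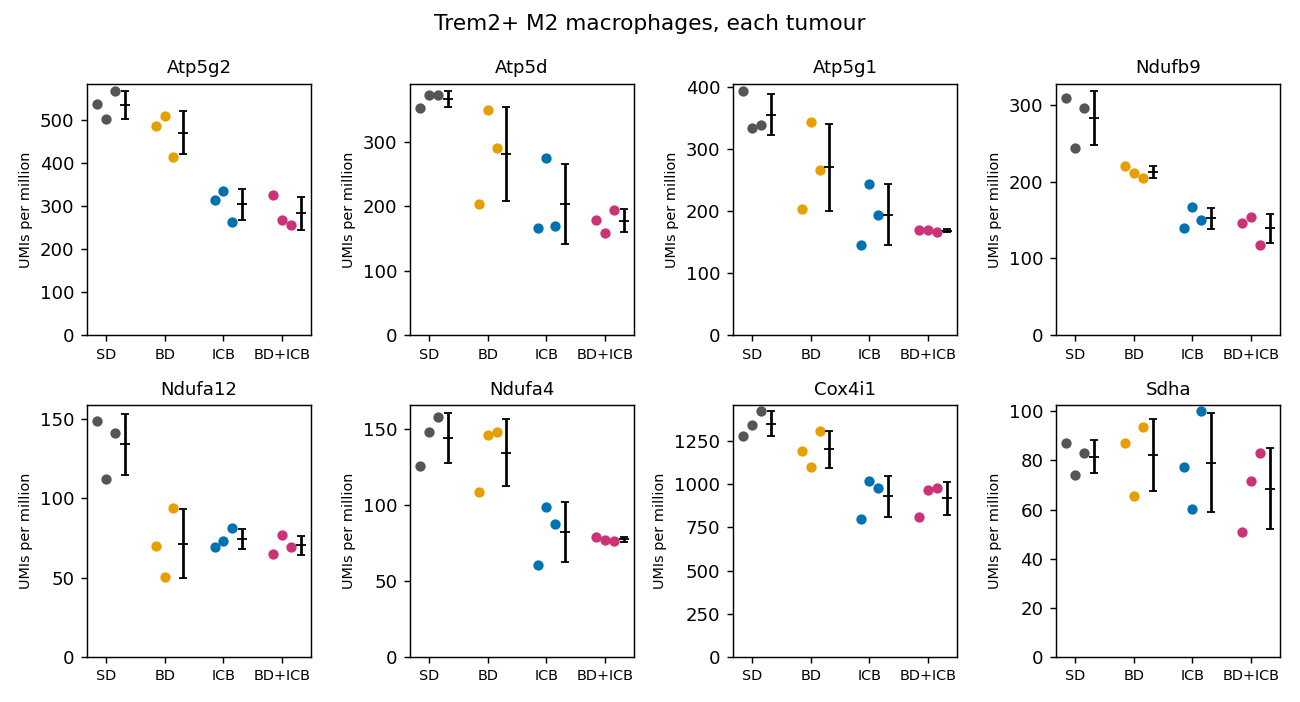
Level in Trem2+ M2 macrophages (y axes, CPM, each from 0) of 7 members called lower in ICB than in SD tumours and of Sdha, which was not. Points are the 3 tumours of each group (x axis) and bars the mean ± SD; for Atp5g2 the ICB points lie between 262 and 335, below the SD points at 502 to 568.

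In Mmp+ M2 macrophages the 5 calls were Atp5d (log2 fold -1.01 ± 0.21 SE; edgeR adjusted p = 0.00641), Atp5g2 (-0.93), Ndufa6 (-0.90), Atp5g1 (-0.95) and Cox7a2l (-0.96), where 2.35% of all genes were called lower. Atp5d gave 372, 396 and 314 CPM in the SD tumours and 207, 192 and 187 in the ICB tumours of this class, which did not overlap. The call of Atp5g1 was lost with a replicate block. In other macrophages, with 2 SD and 3 ICB tumours, Atp5h, Atp5g2, Ndufa4, Ndufa13 and Atp5d were lower by 0.66 to 1.02 on the log2 scale, against 2.39% of all genes, and DESeq2 called none of them. Thus Atp5g2 was called in 4 classes, Atp5d, Ndufa4 and Ndufa6 in 3 each, and Atp5g1 and Atp5h in 2.

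Outside the macrophages 1 member was called in each of 4 classes. The smallest adjusted p among these was for Ndufa4 in proliferating cancer cells. It gave 1227 and 1289 CPM in 2 SD tumours, 745, 656 and 517 in ICB and 499 and 475 in BD+ICB. The SD values of Ndufa4 stood above all 5 others, its log2 fold between ICB and SD was -1.02 ± 0.13 (SE; edgeR adjusted p = 0.00321), and 0.187% of all genes were lower there. The call was lost without SD replicate 1 or SD replicate 3, with adjusted p from 1.07e-15 to 0.0640 over the alternatives. Either setting leaves 1 SD tumour in that class, whose spread is then taken from the other groups. The other 76 members in those cells did not pass, and the median of all 77 log2 folds was -0.14. Depth divided the same tumours without overlap. Median UMIs per proliferating cancer cell were 68233.5 and 70511 in the 2 SD tumours, 120545 to 121658 in ICB and 168340 and 137440 in BD+ICB. The part of depth in the Ndufa4 result was not tested. The remaining calls were Ndufa6 in Cxcr2+ neutrophils (-1.31 ± 0.33 SE; edgeR adjusted p = 0.0276; 0.236% of all genes lower), Atp5g2 in Hilpda+ neutrophils (-1.29 ± 0.39; adjusted p = 0.0445; 2.07%) and Ndufv1 in mesenchymal cells (-0.61 ± 0.16; adjusted p = 0.0446; 2.47%). DESeq2 made none of these 3 calls, and the call of Ndufv1 was also lost with a replicate block. Median depth per mesenchymal cell was 8959 to 10635 UMIs in SD and 28725 to 62845 in ICB tumours. It was 2045 to 2221.5 and 2577 to 2944.5 in Cxcr2+ neutrophils, and 1981 to 2066 and 2746 to 3357 in Hilpda+ neutrophils. The part of depth in these calls was not tested.

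The counts rested on single tumours more than the signs did. All 29 folds stayed negative under every alternative in which the gene was tested, but none of the 29 calls survived leaving out each tumour in turn. The total was 10 without SD replicate 1, 13 without SD replicate 2, 7 without SD replicate 3, 7 without ICB replicate 1 and 18 without ICB replicate 3, and it was 25 with DESeq2, which kept 20 of the 29. In Mmp+ macrophages the 5 calls became 3 without SD replicate 1, 1 without SD replicate 2, 2 without ICB replicate 2 and 0 without ICB replicate 3. In other macrophages the 5 became 2 without ICB replicate 1 (Atp5h and Ndufa4) and 1 without ICB replicate 3 (Atp5h). Leaving out an SD tumour there leaves a single one, whose spread is borrowed from the remaining groups, so counts for that class are not given. In Trem2+ macrophages the count of 15 became 4, 5 and 2 without SD replicates 1, 2 and 3, and 10 without ICB replicate 3. It became 0 without ICB replicate 1, which held 233 of the 288 ICB cells of that class, and the median log2 fold went from -0.43 to -0.27, with 71 negative.

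Cytosolic ribosomal protein genes moved with the members. In Trem2+ macrophages they were 19.2% to 20.4% of UMIs in SD, 15.3% to 19.1% in BD, 10.6% to 13.6% in ICB and 9.64% to 10.8% in BD+ICB, and 67 of 83 tested were lower in ICB than in SD (median log2 fold -0.82). In Mmp+ macrophages 67 of 83 were lower (median -1.003) and in CD8 T cells 56 of 83 (median -0.61), while 0 of 77 members were called in CD8 T cells by edgeR, 7 reached an unadjusted p under 0.05 and DESeq2 called 1. With the ribosomal genes taken out of the table, 23 member calls were left. Median depth per Trem2+ cell was 8246 to 8947 UMIs in SD and 3983.5 to 8083 in ICB tumours, and the summed neutrophil marker list was at 705 to 1052 CPM in SD and 293 to 1133 in ICB (5 and 4 of 6 markers above 20). T cell markers were at 1.98 to 24.3 in SD and 12.5 to 85.8 in ICB, with 0 of 5 above 20. The summed endothelial list was at 4.24 to 11.9 CPM in SD and 25.0 to 55.8 in ICB, and the proliferation list at 34.3 to 59.3 and 66.6 to 85.8, both without overlap (0 and 1 of 3 and 1 and 1 of 5 markers above 20). In Mmp+ macrophages the lists that did not overlap were those of dendritic cells type 1 (175 to 282 CPM in SD, 316 to 472 in ICB, 2 of 4 markers above 20 in each), dendritic cells type 2 (106 to 287 and 307 to 412, 1 of 4 in each) endothelial cells (0 to 26.6 and 30.3 to 61.7, 0 and 1 of 3) and NK cells (0 in SD, 1.60 to 54.5 in ICB, 0 of 5 in each). The 7 macrophage markers there summed to 13549 to 25642 CPM in SD and 4358 to 15531 in ICB, and median depth was 7907 to 8425 UMIs per cell in SD and 9184.5 to 11644 in ICB. The part of these in the result was not tested.

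The mitochondria-encoded subunits were called in both directions, depending on the class, and their difference from the nuclear members was not tested. In Trem2+ macrophages 0 of 13 were called (median log2 fold -0.07) although their share of UMIs was lower in every ICB than in any SD tumour, in Mmp+ macrophages 0 of 12 (median -0.00), and in Cxcr2+ neutrophils mt-Nd2 rose (0.93 ± 0.24 SE; edgeR adjusted p = 0.0330) with a median of 0.47 while the nuclear members there had a median of -0.65. In other macrophages 4 of 12 fell (mt-Atp6, mt-Co2, mt-Co3 and mt-Cytb), where 5 nuclear members fell. Elsewhere mt-Co3 fell in NK cells (-0.46) and mt-Atp8 rose in mesenchymal cells (0.73). In Trem2+ macrophages 5 of 54 mitochondrial ribosomal protein genes fell (median -0.58), 1 of 16 citric acid cycle genes fell (Suclg1; median -0.08), 0 of 16 assembly factors, 0 of 11 biogenesis and import genes and 0 of 4 electron carrier genes were called, and in glycolysis Hk2 rose and Eno1 fell out of 16. These lists were tested at the same threshold over all genes.

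As shares of UMIs, the nuclear members in Trem2+ macrophages were 1.94% to 2.16% in SD, 1.80% to 1.90% in BD, 1.34% to 1.76% in ICB and 1.44% to 1.58% in BD+ICB. In Cxcr2+ neutrophils the share was 1.10% ± 0.0105 in SD (SD of 3 tumours), 0.932% ± 0.0519 in BD (n = 2), 0.697% ± 0.102 in ICB (n = 3) and 0.621% ± 0.0937 in BD+ICB (n = 3). In both classes no ICB or BD+ICB tumour reached the lowest SD or BD tumour. The neutrophil values depended on scaling: as shares, BD stood at 0.847 times SD and BD+ICB at 0.667 times BD, and with TMM-scaled library sizes at 0.498 and 1.01 times. The mitochondria-encoded share went from 0.868% ± 0.0886 in SD to 1.08% ± 0.0826 in ICB in the neutrophils and from 3.64% ± 0.0810 to 3.10% ± 0.0903 in Trem2+ macrophages.

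**Figure D4:**
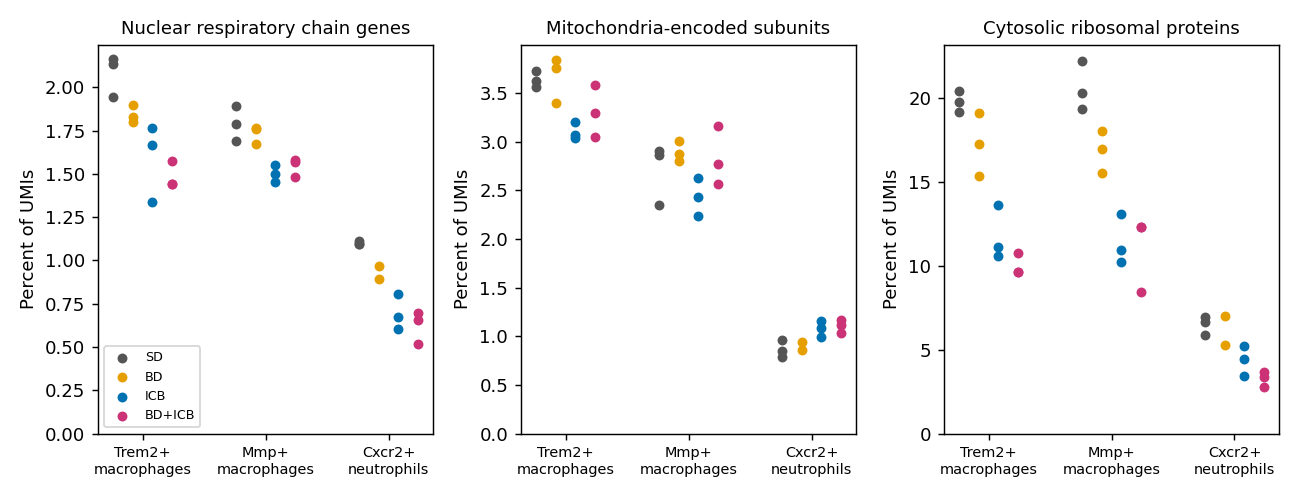
Share of UMIs (y axes, percent) from the 82 nuclear respiratory chain genes, the 13 mitochondria-encoded subunits and 85 cytosolic ribosomal protein genes, in 3 classes (x axis). Each point is 1 tumour, coloured by group; the nuclear and ribosomal shares of Trem2+ macrophages are lower in every ICB and BD+ICB tumour than in any SD tumour.

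The comparison of BD+ICB with BD, which asks the same of the butanediol diet and contrasts other tumours, covered 4 classes. It is not independent of the SD and ICB tumours, which share the filter, scaling and estimate of spread of each fit. It called 2 members lower and 0 higher, out of 293 member tests, against 0.849% of 19434 gene tests lower. These were Ndufa4 in M1 macrophages, at 105 and 155 CPM in BD and 60.9, 70.1 and 54.5 in BD+ICB (log2 fold -0.94 ± 0.24 SE; edgeR adjusted p = 0.0484; 0.478% of all genes lower), and Ndufb10 in Trem2+ macrophages (-0.85 ± 0.24; adjusted p = 0.0436; 2.18%). In Trem2+ macrophages 55 of 77 folds were negative with a median of -0.25. Leaving out any BD+ICB tumour removed both calls, as did leaving out SD replicate 3 or ICB replicate 2. Without BD+ICB replicate 3 the 1 member called was another one. The call of Ndufb10 alone was lost without SD replicate 1, SD replicate 2 or BD replicate 2. The call of Ndufa4 alone was lost without ICB replicate 1 or ICB replicate 3. M1 macrophages had 2 BD tumours, so leaving out BD replicate 1 or BD replicate 3 leaves 1 there. In Trem2+ macrophages the call of Ndufb10 was kept without BD replicate 1 and lost without BD replicate 3. DESeq2 called Ndufa4 alone.

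The butanediol diet was compared within a library, BD with SD and BD+ICB with ICB, so these comparisons do not cross the libraries, but each shares a group with the comparisons above. Between BD and SD no member passed the threshold in any of 4 classes with edgeR (0 of 293 tests, against 0.0309% of all genes called in either direction), 27 tests reached an unadjusted p under 0.05 and DESeq2 called 0. In Trem2+ macrophages 72 of 77 folds were negative with a median of -0.24, where the median of all genes was 0.01. The same comparison gave medians of -0.30 in Cxcr2+ neutrophils, where all genes stood at -0.18, -0.17 in Mmp+ macrophages and -0.08 in M1 macrophages. Ribosomal protein genes had a median of -0.25 in Trem2+ macrophages, with 80 of 83 negative and 0 called.

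The 5 members with the smallest unadjusted p in Trem2+ macrophages, the class with most cells in these tumours (384), were Ndufa12 (log2 fold -0.93 ± 0.24 SE), Sdhb (-0.79 ± 0.27), Ndufa8 (-0.60 ± 0.23), Atp5j (-0.53 ± 0.21) and Ndufb9 (-0.46 ± 0.19), with edgeR adjusted p from 0.762 to 0.796. Sdhb gave 137, 138 and 118 CPM in SD and 89.6, 101 and 48.3 in BD. Atp5j, a coupling subunit of the peripheral stalk, gave 322, 294 and 324 in SD and 237, 242 and 196 in BD. The SD and BD values of these genes did not overlap, but the genes were picked for small p, which favours such separation. How many of all genes separated in this way was not counted, and none of the 5 passed the test over all genes.

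Between BD+ICB and ICB no member passed in 13 classes with edgeR (0 of 969 tests, against 0.307% of all genes called in either direction), 44 tests reached an unadjusted p under 0.05 and DESeq2 called 0. More folds were positive than negative in most classes. In CD8 T cells 63 of 77 were positive with a median of 0.20 (all genes -0.00), in CD4 T cells 55 of 69 with a median of 0.13, and in NK cells 53 of 69 with a median of 0.18. Outside lymphocytes, 62 of 77 were positive in proliferating cancer cells (median 0.11), 56 of 77 in Nos2+ dendritic cells (median 0.14) and 54 of 77 in M1 macrophages (median 0.05). Trem2+ macrophages had 39 of 77 positive with a median of 0.00, and in Cxcr2+ neutrophils 21 of 62 were positive (median -0.10). Differences between classes were not tested.

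The members' share in CD8 T cells was 1.76%, 1.80% and 1.73% in the ICB tumours and 1.92%, 2.05% and 1.95% in the BD+ICB tumours, without overlap, and 1.94% and 1.83% in 2 SD tumours. In CD4 T cells it was 1.66%, 1.85% and 1.71% in ICB and 1.86%, 1.91% and 1.92% in BD+ICB. The smallest unadjusted p in CD8 T cells belonged to Ndufs5 (log2 fold 0.50 ± 0.19 SE), Ndufv3 (0.53 ± 0.20), Ndufa5 (0.56 ± 0.22), Atp5g3 (0.40 ± 0.17) and Ndufc2 (0.49 ± 0.21), with edgeR adjusted p from 0.341 to 0.473. Ndufs5, an intermembrane-space subunit of complex I, gave 109, 122 and 117 CPM in ICB and 162, 176 and 141 in BD+ICB. These did not overlap, but Ndufs5 was picked for its small p, which favours such separation. The SD tumours gave 150 and 203.

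Other mitochondrial lists in CD8 T cells showed 1 call between BD+ICB and ICB. Etfb, a subunit of the electron transfer flavoprotein that feeds fatty acid electrons into the chain, rose (0.87 ± 0.21 SE; edgeR adjusted p = 0.0350), 1 of 6 electron carrier genes tested. In glycolysis the lactate exporter gene Slc16a3 fell (-1.57 ± 0.35; adjusted p = 0.0265), 1 of 15. Mitochondrial ribosomal protein genes (median 0.18) and mitochondria-encoded subunits (median 0.03) had no call, nor had ribosomal protein genes (median 0.03).

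**Figure D5:**
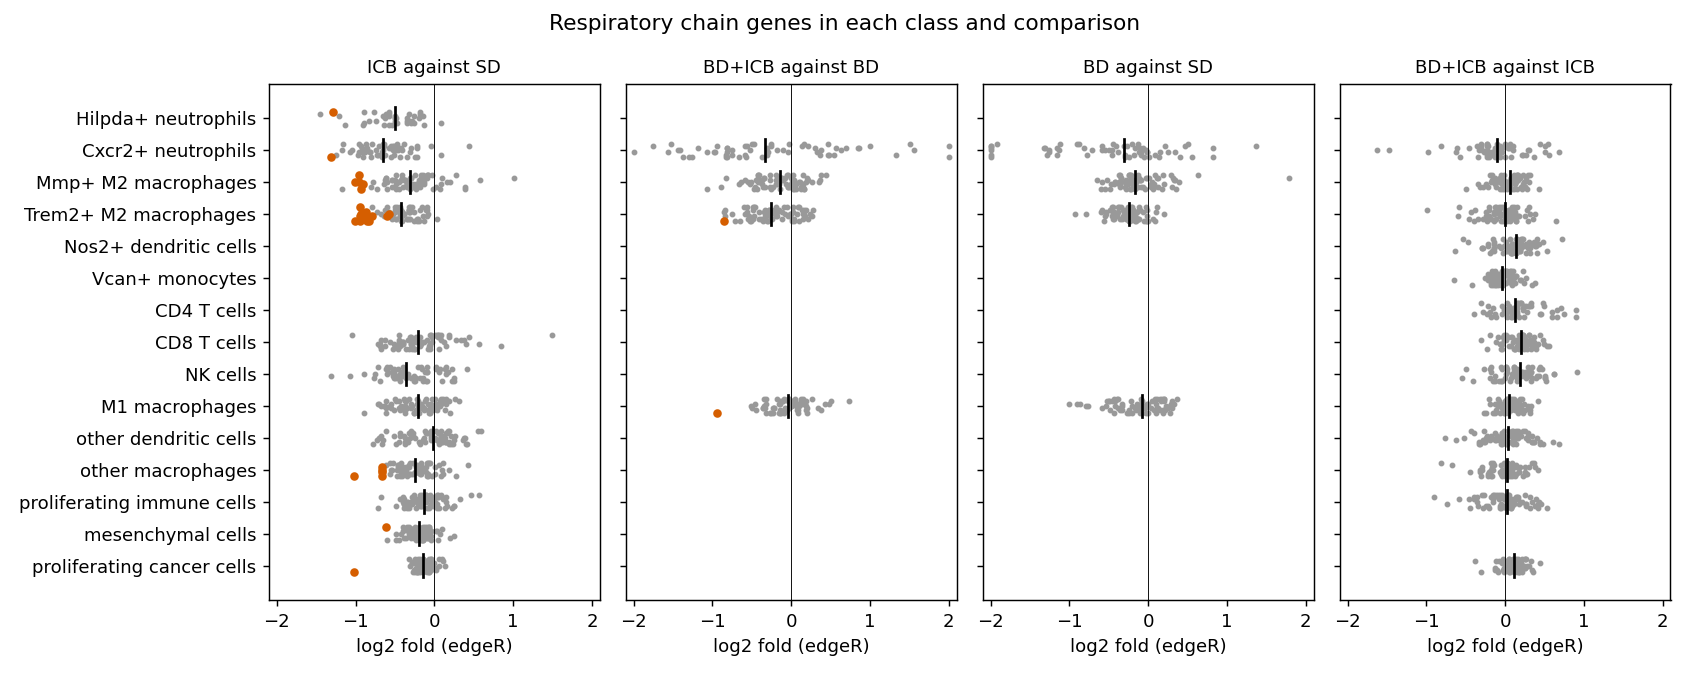
Log2 fold of each tested respiratory chain gene (x axes) by class (y axis) in 4 comparisons. Each point is 1 gene, orange where edgeR's adjusted p was under 0.05, and bars are medians; values beyond 2 in size, of genes with few UMIs, are drawn at the edge, and all orange points lie left of 0.

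Over both libraries the diet effect called 0 of 293 member tests in edgeR (against 0.0309% of all genes), with 18 at an unadjusted p under 0.05 and 0 by DESeq2. The interaction, which asks whether the effect of blockade differed between diets, called 0 of 293 (against 0.00515% of all genes), with 15 at an unadjusted p under 0.05 and 0 by DESeq2. In Trem2+ macrophages 65 of 77 interaction estimates were positive with a median of 0.27. The blockade comparison in the same class had medians of -0.43 on the standard diet and -0.25 on butanediol, and no member's difference between the diets passed the test.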

How the data were processed

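The deposited table of counts holds whole-number UMI counts per gene and cell; per the submitters' processing notes Cell Ranger, R 4.1 and build mm10 were used, and per the file headers the matrices come from Cell Ranger 6.1.1. How reads shared with pseudogenes or near-identical copies, which many of these genes have, were counted is not given in the sources used here. Tumour, group and class of each cell came from the authors' table of cells. Counts were summed per tumour and class where at least 10 cells were present, and levels are CPM. Doublets were not called here. The quasi-likelihood test of edgeR used TMM scaling, filterByExpr and robust dispersion. It was fitted per class over all tumours with at least 10 cells of the class, whatever their group. Comparisons were made where each group compared had at least 2 such tumours. SE is the size of the log2 fold divided by the square root of F. DESeq2, RLE size factors, no filter, at least 30 cells, cells with at least 1000 UMIs, a stricter hashtag rule, a replicate block, and each tumour left out were tried, and the scripts were tested on simulated data. Members and lists were chosen with earlier results of these data known. By the rule for names, the text gives called members (at most 10 per class and comparison, by adjusted p), the 3 highest of each complex, isoforms with their highest class, set core subunits, and 5 members of smallest p where a diet comparison had under 5 calls. Outside it, Atp5o, Ndufv2 and the members at the ends of the neutrophil order (Ndufa9, Ndufc2, Atp5g3 and Atp5md) were named after their values were seen.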

Additional observations from a re-analysis of the deposited data

How the results depend on the processing

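Between ICB and SD the count of 29 members became 4 with at least 30 cells per tumour and class, which left 2 classes, and 7 to 32 when 1 tumour was left out. Between BD+ICB and BD the count of 2 became 1 with DESeq2, which kept the call of Ndufa4. It was also 1 without the filter or under the stricter hashtag rule, but both calls were lost there and another member was called. The count was 0 without ribosomal protein genes (an alternative chosen after seeing the data), and 0 to 1 when 1 tumour was left out. Between BD+ICB and ICB 0 became 1 without the filter. The counts of 0 for BD against SD, the diet effect and the interaction stayed 0 under all alternatives that could be run, where 15 to 27 tests were under an unadjusted p of 0.05.

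The ratio of the members' share changed when it was counted as UMIs per cell: 0.149 for Cxcr2+ neutrophils over Trem2+ macrophages (0.470 as a share, 0.461 to 0.481 leaving out 1 tumour), 0.115 for Hilpda+ neutrophils over Mmp+ macrophages (0.406; 0.393 to 0.417), 0.193 for Cxcr2+ neutrophils over CD8 T cells (0.413; 0.385 to 0.434), 6.81 for mesenchymal cells over Trem2+ macrophages (1.33; 1.25 to 1.37) and 1.46 for M1 over Mmp+ macrophages (1.28; 1.27 to 1.29). With TMM-scaled sizes the third was 0.541 and the last 1.20. Cells of these classes differ in UMIs per cell.

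The replicate numbers come from the table of cells and nothing says that they pair tumours. Same-numbered tumours of Trem2+ macrophages had deviations correlated from -0.09 to 0.28 over 18 pairs (median 0.06). Tumours of other numbers had -0.30 to 0.16 over 36 pairs (median -0.03), and the difference was not tested. The replicate block gave an ICB against SD count of 29, but not the same calls. Ndufv1 in mesenchymal cells and Atp5g1 in Mmp+ macrophages were lost, and others passed in their place. Depth limits the smaller samples: Trem2+ macrophages had 18 cells in BD+ICB replicate 3 and 20 in BD replicate 2, against 233 in ICB replicate 1.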
